A study of Mus musculus with 6 samples.

Results

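Homologous recombination and Fanconi repair genes were followed in TuBo cells with and without p140Cap. TuBo is a mouse mammary carcinoma line that came from the Balb-NeuT strain. The genes are 35 named members of the recombination, Fanconi anemia and DNA damage checkpoint machinery, taken by symbol from the 21960 genes of the count table, and each symbol matched exactly 1 row. Mock cells (3 libraries) were compared with cells that carry a retroviral p140Cap cDNA and were selected with puromycin (p140Cap, 3 libraries), and all 6 libraries share the Balb-NeuT background of a rat HER2/neu driven tumor line. The p140Cap cells were made by pooling clones that had been grown from single cells, so they stand for a few clones and not for the whole infected population. How the mock cells were made is not stated for these samples. One label field names a cell line and another names mice, and the samples are taken as cultured cells. Nothing in the labels says that the 3 libraries of a group came from separate cultures, so the p values measure the spread between these libraries, which may be technical.

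Homologous recombination repairs DNA double-strand breaks by copying the sister chromatid, and is therefore used in S and G2 phase. Nucleases first resect the broken ends, BRCA1 and BRCA2 complexes then act on the single-stranded DNA, and XRCC and RAD54 proteins assist strand invasion. The Fanconi pathway recognizes crosslinks between the DNA strands, and its core complex attaches ubiquitin to FANCD2 and FANCI. ATM and ATR are the kinases that signal the damage to the cell cycle. Inherited loss of several of these genes predisposes to breast cancer.

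Counts were scaled with TMM factors to CPM, reads of a gene relative to the library total and tested with edgeR's quasi-likelihood test over the 11800 genes with enough reads, and p values were adjusted over all of these with the Benjamini-Hochberg method at a threshold of 0.05. Library totals ranged from 13770385 to 75506562 reads on genes, and the lowest mock total (33058719) exceeded the highest p140Cap total (15364850). No member had fewer than 41 reads in any library, and all 35 passed the filter on low counts. Srcin1, which encodes p140Cap, was at 15.6, 12.8 and 16.6 CPM in the mock and at 2265, 2519 and 2244 CPM in the p140Cap libraries, as the labels say. The cells expressed 9 of 10 mammary epithelial markers at a level that allowed a test (summed level 5619 to 6000 CPM in mock and 6596 to 6820 CPM in p140Cap cells), and Krt19 was close to 0 with means of 0.0358 and 0.202 CPM. The summed level was 9.93 to 10.5 CPM in mock and 11.3 to 14.1 CPM in p140Cap libraries for 7 fibroblast markers, 2.04 to 2.34 and 3.23 to 4.09 CPM for leukocyte markers, and at most 0.734 CPM in any library for endothelial and basal markers. Of these markers 4 had enough reads for a test, and 3 were higher in p140Cap cells. The collagen gene Col1a1 went from 2.97 to 5.02 CPM (log2 fold change 0.80, edgeR adjusted p = 0.000244), the macrophage marker Cd68 from 2.14 to 3.76 CPM (0.83, edgeR adjusted p = 0.000119) and the endothelial marker Pecam1 from 0.271 to 0.645 CPM (1.25, edgeR adjusted p = 0.0133), while Pdgfra was at 7.18 and 7.67 CPM (0.09, edgeR adjusted p = 0.499). No read was found in any library for 5 of the 7 fibroblast markers, Dcn and Lum among them, or for the leukocyte markers Ptprc and Cd3e. The part of such cells in the results was not tested.

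Repair gene expression was lower in p140Cap cells for most members. Of the 35 genes, 25 fell and 5 rose at an adjusted p under 0.05, and 5 were not called. Over all genes tested, 71.1% were called, with 35.9% lower and 35.2% higher, so the share of lower members (71.4%) was above and the share of higher members (14.3%) below the background. The median log2 fold change of the members was -0.38, which is 76.7% of the mock level, beside a median of -0.00 over all genes tested. In single libraries the members differed from the mock mean by a median of -0.33, -0.41 and -0.41 (p140Cap) and of 0.02, 0.04 and -0.07 (mock) on the log2 scale. The CPM values of the groups did not overlap for 25 members that were lower and 6 that were higher, where 37.2% and 36.3% of all genes tested did the same. Most of the changes were moderate. Fanca, Exo1 and Fancl were the 3 members called with a log2 fold change of -1 or lower, a limit that 5.04% of all genes tested passed. In bulk RNA, fewer cells in the phases in which these genes are transcribed and less RNA per cell cannot be told apart. With every library thinned to the smallest total, 23 members were lower and 5 higher. Without p140Cap replicate 3 the higher members were 3, and with any other library left out they were between 4 and 6.

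**Figure D1:**
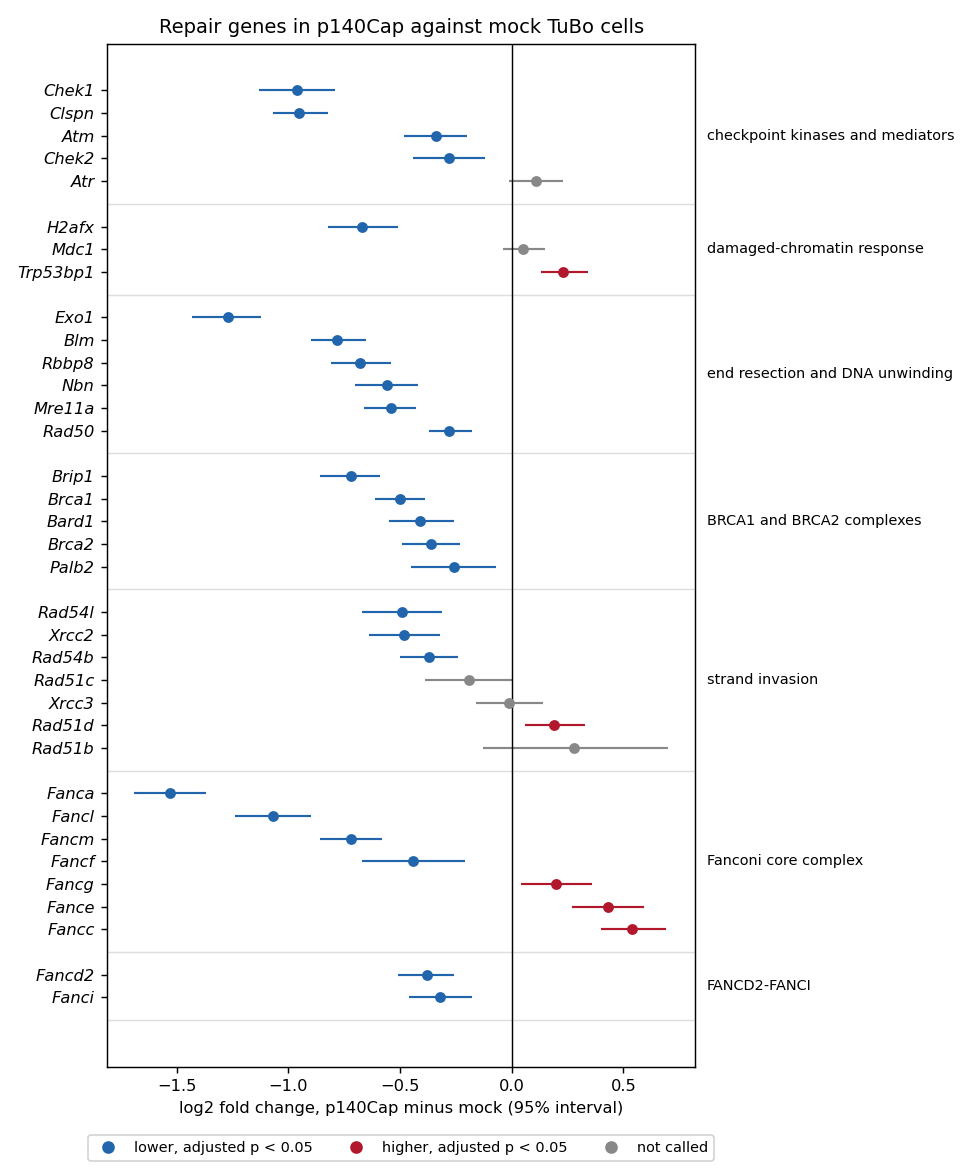
Log2 fold change of each of the 35 genes, p140Cap minus mock, on the x axis, with genes grouped by role on the y axis. Bars are 95% intervals from edgeR's quasi-likelihood fit, and colors mark genes called lower (25), called higher (5) and not called (5). Genes of end resection and of the BRCA1 and BRCA2 complexes all lie left of 0, while the Fanconi core complex spans from -1.53 for Fanca to 0.54 for Fancc.

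Since many members moved together, their promoters were searched for words bound by E2F factors, which drive genes of S phase. RefSeq promoters of GRCm38.p6, the RefSeq form of the mm10 build named in the submitters' processing notes, span 250 bases before to 50 bases after an annotated start. A promoter was given for 26 of the 35 members, and the others (H2afx, Rad50, Nbn, Rbbp8, Exo1, Rad51d, Xrcc2, Rad54b and Fancd2) were not searched. The words TTTCGCGC, TTTGGCGC, TTTCCCGC and TTTGCCGC were searched on both strands. They were found in the promoters of 7 members (26.9%), against 4.94% of 9117 tested genes with a promoter, where a word in any promoter of a gene counted. Of all 32851 promoters, counted singly and so not on the same measure, 2.26% held a word. Each word is given below in capitals with 11 bases on each side, 5′ to 3′ on the strand of the gene. Numbers are positions of the first base in capitals relative to the start, and Rad51c has a word in each of 2 annotated promoters.
Bard1, chr1:71103163-71103192, minus strand, -209: ccgccgctcagTTTCCCGCtcaggaagttt
Brca2, chr5:150522442-150522471, plus strand, -168: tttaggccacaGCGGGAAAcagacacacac
Chek2, chr5:110839820-110839849, plus strand, -152: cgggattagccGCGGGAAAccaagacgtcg
Fancg, chr4:43010335-43010364, minus strand, -52: tttcttttcagTTTCCCGCggaaccgtctc
Mdc1, chr17:35841471-35841500, plus strand, -16: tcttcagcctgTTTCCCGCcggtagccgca
Rad51c, chr11:87404941-87404970, minus strand, -5: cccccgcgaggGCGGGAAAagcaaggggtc
Rad51c, chr11:87404477-87404506, minus strand, 12: gtttccagcgcTTTCGCGCctcttgctcta
Clspn, chr4:126556990-126557019, plus strand, 22: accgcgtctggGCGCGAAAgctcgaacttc

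The genes with an E2F word did not all move one way. Clspn, Bard1, Brca2 and Chek2 fell, Fancg rose, and Mdc1 and Rad51c were not called. The median log2 fold change was -0.28 for the 7 members with a word and -0.44 for the 19 without, while over tested genes it was -0.13 with a word and 0.01 without. CCAAT, the word of the NF-Y factor, was in 17 of the 26 promoters (65.4%, against 43.3% of tested genes), and TTTGAA or TTCGAA, words of the cell cycle homology region, in 3 (11.5%, against 16.4%). The median log2 fold change of members was -0.44 with CCAAT and -0.32 without. For the words of the cell cycle homology region it was 0.11 in the 3 members with one and -0.36 without. No E2F word in these promoters overlapped another of the searched words. A match describes the letters in this window and does not show that a factor binds there.

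Among the checkpoint kinases and their mediators, 4 of 5 genes fell and Atr was not called. Chek1, the kinase that ATR activates when replication stalls, was at 43.4, 44.7 and 40.3 CPM in mock and at 24.7, 18.9 and 22.5 CPM in p140Cap libraries. Every p140Cap library lay well below every mock library, and the log2 fold change was -0.96 (SE 0.08, edgeR adjusted p = 1.34e-08). Clspn, whose product claspin presents CHK1 to ATR, fell by nearly the same amount, with a log2 fold change of -0.95 (SE 0.06, edgeR adjusted p = 6.78e-10) and 3 p140Cap values between 20.0 and 20.9 CPM. Chek2, the kinase downstream of ATM, was at 35.5, 36.4 and 31.2 CPM in mock and at 30.7, 26.2 and 28.1 CPM in p140Cap libraries. Its groups came close without overlapping, and the log2 fold change was -0.28 (SE 0.07, edgeR adjusted p = 0.00284). Atm itself fell by 0.34 on the log2 scale (SE 0.07, edgeR adjusted p = 0.000206).

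Atr, the kinase that senses single-stranded DNA, was at 94.8, 91.6 and 83.2 CPM in mock and at 100, 92.4 and 99.2 CPM in p140Cap libraries, and the groups overlapped. The log2 fold change was 0.11, with a 95% interval from -0.01 to 0.23 (edgeR adjusted p = 0.0852). It was called without mock replicate 1 (adjusted p = 0.0444, edgeR) and without p140Cap replicate 2 (adjusted p = 0.0366, edgeR), with a log2 fold change of 0.15 each time, and was 0.06 without mock replicate 3 (adjusted p = 0.347, edgeR).

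The 3 genes of the response at damaged chromatin went different ways. H2afx encodes the histone variant that is phosphorylated around a break, and was at 89.5, 87.2 and 96.1 CPM in mock and at 51.7, 65.8 and 54.1 CPM in p140Cap libraries. All p140Cap values were lower, with p140Cap replicate 2 above the other two, and the log2 fold change was -0.67 (SE 0.07, edgeR adjusted p = 3.79e-07). Trp53bp1 encodes 53BP1, which restrains end resection, and rose from 115, 108 and 112 CPM in mock to 135, 136 and 123 CPM in p140Cap libraries. Its log2 fold change was 0.23 (SE 0.05, edgeR adjusted p = 0.000566), and the groups did not overlap. Mdc1, the adaptor that binds the phosphorylated histone, was at 112, 110 and 106 CPM in mock and at 113, 116 and 112 CPM in p140Cap libraries. Every p140Cap value lay just above the mock values, and the log2 fold change of 0.05 (95% interval -0.04 to 0.15, edgeR adjusted p = 0.311) was not called.

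All 6 genes of end resection and DNA unwinding fell, with a median log2 fold change of -0.62. The largest decrease was that of Exo1, the 5′ to 3′ exonuclease of long-range resection, at 37.4, 40.3 and 36.5 CPM in mock and 17.0, 14.2 and 16 CPM in p140Cap libraries. This was 41.4% of the mock level, a log2 fold change of -1.27 (SE 0.07, edgeR adjusted p = 2.54e-10), with groups far apart. Blm, the helicase that works beside the nucleases, had a log2 fold change of -0.78, and Rbbp8, which encodes the resection factor CtIP, one of -0.68. The MRE11 complex, which starts resection, changed by less. Its subunits Nbn and Mre11a had log2 fold changes of -0.56 and -0.54. Rad50, the third subunit, was at 104, 103 and 102 CPM in mock and at 84.8, 84.7 and 86.0 CPM in p140Cap libraries, a log2 fold change of -0.28 (SE 0.05, edgeR adjusted p = 4.34e-05). The values of Rad50 were tight in each group and did not overlap.

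All 5 genes of the BRCA1 and BRCA2 complexes fell, with a median log2 fold change of -0.41. Brca1, the tumor suppressor that works as a ubiquitin ligase with BARD1, was at 105, 107 and 99.1 CPM in mock and at 74.1, 70.4 and 75.9 CPM in p140Cap libraries, a log2 fold change of -0.50 (SE 0.05, edgeR adjusted p = 2.22e-07). Brca2, which acts on the resected DNA, went from 67.5, 65.7 and 59.2 CPM to 53.2, 48.9 and 48.0 CPM, a log2 fold change of -0.36 (SE 0.06, edgeR adjusted p = 6.25e-05). In both genes each p140Cap library was below each mock library. Brip1, a helicase that binds BRCA1, fell most, from 43.5, 44.8 and 39.4 CPM to 25.8, 25.7 and 25.9 CPM, with a log2 fold change of -0.72 (SE 0.06, edgeR adjusted p = 3.77e-08). The p140Cap libraries were nearly identical for this gene. Bard1 had a log2 fold change of -0.41 (SE 0.07, edgeR adjusted p = 6.37e-05).

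Palb2, the bridge between BRCA1 and BRCA2, had the smallest change of these genes. It was at 19.4, 20.5 and 18 CPM in mock and at 17.4, 13.6 and 17.4 CPM in p140Cap libraries, so that 2 p140Cap libraries lay just under the lowest mock library. The log2 fold change was -0.26 (SE 0.09, edgeR adjusted p = 0.015). It was not called without p140Cap replicate 2, where it was -0.15 (adjusted p = 0.118, edgeR), or after thinning of the libraries (adjusted p = 0.0571, edgeR).

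**Figure D2:**
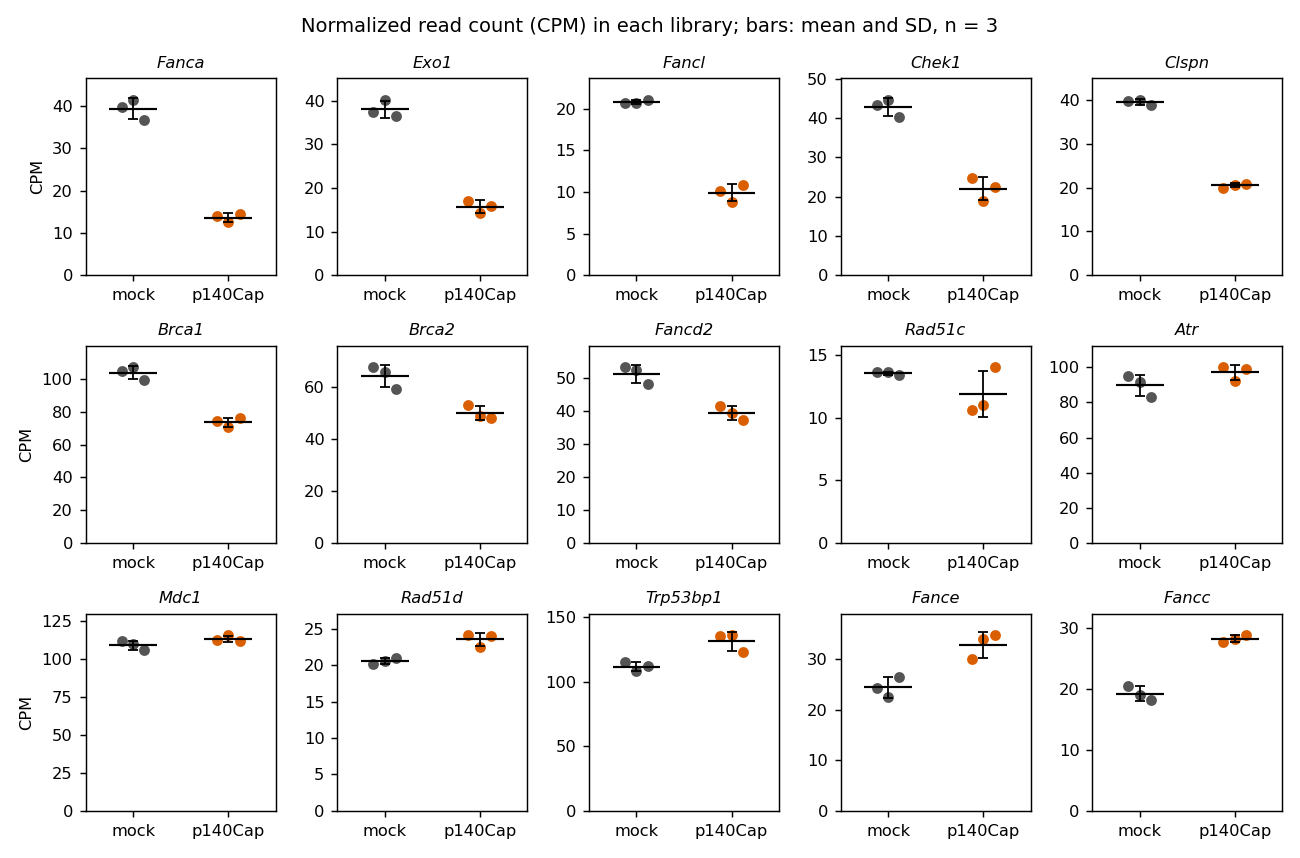
Normalized read count (CPM, y axis from 0) of 15 genes in the 3 mock and 3 p140Cap libraries. Points are libraries, and bars give the mean and the SD. The groups lie far apart for Fanca, Exo1, Fancl, Chek1 and Clspn, overlap for Rad51c and Atr, and are higher in p140Cap cells for Rad51d, Trp53bp1, Fance and Fancc.

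Of the 7 genes that assist strand invasion, 3 were lower, 1 was higher and 3 were not called. Rad54l, a motor protein that works on the sister duplex, was at 23.3, 21.7 and 20.1 CPM in mock and at 14.7, 14.4 and 17.6 CPM in p140Cap libraries, a log2 fold change of -0.49 (SE 0.09, edgeR adjusted p = 7.7e-05). Xrcc2 fell by 0.48 on the log2 scale, and Rad54b by 0.37, although Rad54b shares exons on its strand with Fsbp and its reads are therefore uncertain. Rad51d moved the other way, from 20.2, 20.6 and 21.0 CPM to 24.1, 22.5 and 24.0 CPM, without overlap. Its log2 fold change was 0.19 (SE 0.06, edgeR adjusted p = 0.0134), and the adjusted p rose to 0.0608 without mock replicate 1, to 0.0593 without p140Cap replicate 1, to 0.0536 without p140Cap replicate 3 and to 0.0511 with no filter on low counts (edgeR). RAD51D and XRCC2 proteins work in the same complex, and their transcripts thus changed in opposite directions.

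The other 3 genes of this role were not called. Rad51c was at 13.6, 13.6 and 13.4 CPM in mock and at 10.6, 11 and 14.0 CPM in p140Cap libraries, where replicate 3 stood above every mock library. Its log2 fold change was -0.19 (95% interval -0.39 to 0.00, edgeR adjusted p = 0.0714), and it was -0.32 without p140Cap replicate 3 (adjusted p = 0.00547, edgeR) and -0.12 without p140Cap replicate 1 (adjusted p = 0.317, edgeR). With no filter on low counts Rad51c was called (-0.22, adjusted p = 0.0261, edgeR). Xrcc3, the partner of RAD51C, was at 20.4, 18.2 and 18.8 CPM in mock and at 19.4, 19.1 and 18.9 CPM in p140Cap libraries, with a 95% interval of the log2 fold change from -0.16 to 0.14 (edgeR adjusted p = 0.925). Rad51b was the rarest member, with 207, 136 and 67 reads in mock and 61, 43 and 41 reads in p140Cap libraries. These are 2.70, 3.42 and 2.01 CPM against 4.02, 2.93 and 3.01 CPM, and the groups overlapped. The log2 fold change of 0.28 had a 95% interval from -0.13 to 0.70 (edgeR adjusted p = 0.201), and over the alternatives it ranged from 0.12 without p140Cap replicate 1 (adjusted p = 0.666, edgeR) to 0.45 without mock replicate 2 (adjusted p = 0.0423, edgeR). Without mock replicate 3 it was 0.15 (adjusted p = 0.47, edgeR).

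The 7 genes of the Fanconi core complex split, with 4 lower and 3 higher. Fanca (chromosome 8 of GRCm38.p6, 123266294 to 123318651) was the most decreased of all members and stood at position 248 of the 11800 genes ordered from the lowest log2 fold change. It was at 39.7, 41.5 and 36.6 CPM in mock and at 14.0, 12.5 and 14.4 CPM in p140Cap libraries, or 34.7% of the mock level. The log2 fold change was -1.53 (SE 0.08, edgeR adjusted p = 3.98e-11), far beyond the spread between libraries. Fancl, the ubiquitin ligase subunit, was at 20.7, 20.7 and 21.1 CPM in mock and at 10.1, 8.85 and 10.8 CPM in p140Cap libraries, a log2 fold change of -1.07 (SE 0.08, edgeR adjusted p = 4.95e-09). Fancm, the translocase that anchors the complex on DNA, had a log2 fold change of -0.72 (SE 0.07, edgeR adjusted p = 5.95e-08). Fancf, an adaptor with few reads, had one of -0.44 (SE 0.11, edgeR adjusted p = 0.00165), and was no longer called once the libraries were thinned to one total (-0.27, adjusted p = 0.0818, edgeR).

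Fancc (chromosome 13, 63301334 to 63497292) rose most of all members, from 20.6, 19.0 and 18.3 CPM in mock to 27.8, 28.3 and 28.9 CPM in p140Cap libraries. The groups were clearly apart, and the log2 fold change was 0.54 (SE 0.07, edgeR adjusted p = 1.84e-06). Fance, whose product binds FANCC and FANCD2, rose from 24.3, 22.4 and 26.5 CPM to 29.9, 33.9 and 34.7 CPM, a log2 fold change of 0.43 (SE 0.07, edgeR adjusted p = 7.43e-05). Fancc and Fance rose while Fancf, which is in the same subcomplex, fell. Fancg, the partner of FANCA, had a log2 fold change of 0.20 (SE 0.07, edgeR adjusted p = 0.0228), a call that was lost when mock replicate 1, mock replicate 3, p140Cap replicate 2 or p140Cap replicate 3 was left out (adjusted p = 0.0814, 0.0696, 0.0759 and 0.0793, edgeR). After thinning of the libraries the value for Fancg was 0.35 (adjusted p = 0.00331, edgeR). Fancd2 and Fanci, the substrates of the core complex, both fell. Fancd2 was at 53.1, 52.3 and 48.0 CPM in mock and at 41.3, 39.4 and 37.2 CPM in p140Cap libraries, a log2 fold change of -0.38 (SE 0.06, edgeR adjusted p = 2.6e-05). Fanci was at 47.0, 49.8 and 45.1 CPM in mock and at 36.1, 36.0 and 42.0 CPM in p140Cap libraries, a log2 fold change of -0.32 (SE 0.07, edgeR adjusted p = 0.000383), and neither gene had overlapping groups.

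Levels were next set beside each other per length of annotated exon, as CPM per kb. In mock cells H2afx had the highest level (65.7 CPM per kb), followed by Rad50 (15.9), Mdc1 (14.5), Brca1 (11.8) and Nbn (10.4), while Fancc (1.08) and Rad51b (0.553) had the lowest. In p140Cap cells Fance (10.3) and Trp53bp1 (9.14) stood above Brca1 (8.37), which they did not in mock cells (7.62 and 7.78). Exon length was taken as the union over all annotated transcripts, so genes with many isoforms are placed too low. Across the 35 members the log2 fold change was barely related to the level in mock CPM (Pearson's r = -0.2, Spearman's rho = -0.19) or to the exon length (r = -0.03, rho = -0.083). These are descriptions over genes that share the same 6 libraries.

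**Figure D3:**
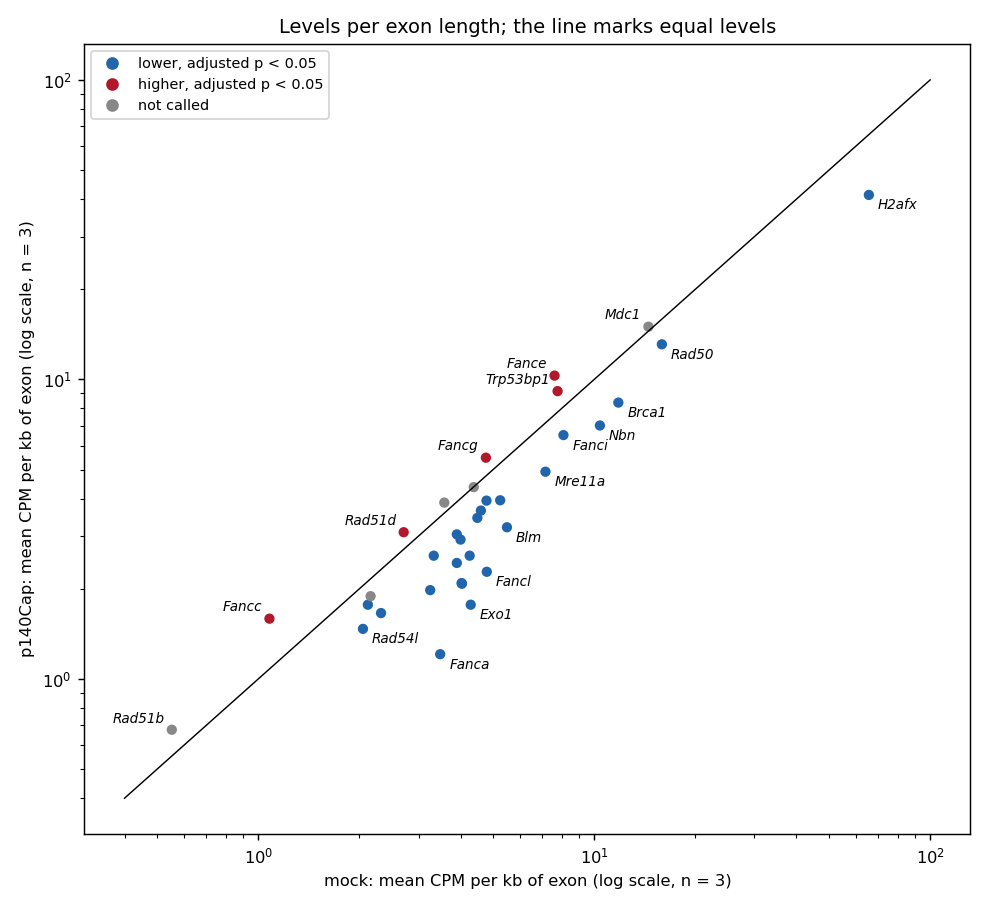
Mean level in mock (x axis) and p140Cap cells (y axis) for the 35 genes, in CPM per kb of exon on log scales (n = 3 libraries each). The line marks equal levels. H2afx lies at the top right (65.7 and 41.3), Fanca furthest below the line (3.48 and 1.21), and Fancc above it (1.08 and 1.59).

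Ratios between partners were computed in each library for 8 pairs chosen after the values had been seen, so they are given as a description. An exact permutation test was run on each pair, but with 3 against 3 libraries its p cannot fall under 0.1. Per exon length, the ratio of Fanca to Fancg was 0.755, 0.716 and 0.728 in mock and 0.239, 0.197 and 0.228 in p140Cap libraries. The ratio of Chek1 to Chek2 went from 0.846 ± 0.027 to 0.525 ± 0.0301, and that of Atm to Atr from 1.28 ± 0.0335 to 0.943 ± 0.0109 (mean ± SD, n = 3 each). Within the MRE11 complex the ratio to Rad50 went from 0.451 ± 0.0189 to 0.376 ± 0.00741 for Mre11a and from 0.654 ± 0.0495 to 0.536 ± 0.00939 for Nbn (mean ± SD, n = 3 each). For these 5 pairs the groups did not overlap (exact permutation test, p = 0.1 and adjusted p = 0.16 for each), and none was called. Among single genes tested, 37.2% were lower and 36.3% higher without overlap, so separated groups are common in these data. The ratios of Bard1 to Brca1 (0.444 and 0.473 in mock and p140Cap cells), Palb2 to Brca2 (0.544 and 0.583) and Fancd2 to Fanci (0.554 and 0.533) overlapped between the groups.

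Other repair genes were read from the same fit, in which 35.9% of all genes tested were lower and 35.2% higher. Of 46 other recombination, Fanconi and checkpoint genes, 30 were lower and 5 higher, with a median log2 fold change of -0.44. Dna2, a nuclease of resection, was at -1.43, and Gen1, which cuts Holliday junctions, at -1.21. The highest were Wdr48, a cofactor of the deubiquitinase that acts on FANCD2, at 0.51 and Faap20, which binds FANCA, at 0.48. Among 11 end joining genes 6 were lower and 1 higher (median -0.19). Xrcc5, which encodes the larger Ku subunit, was at -1.46 and the ligase Lig4 at -1.12, while the polymerase Polm was at 0.62. The higher end joining genes were 2 when mock replicate 2, p140Cap replicate 1 or p140Cap replicate 3 was left out. Of the 7 mismatch repair genes 6 were lower and 1 higher (median -0.35), from -0.53 for Msh6 to 0.40 for Mlh3, the latter not called without p140Cap replicate 3. Base excision and single-strand break repair genes were lower in 11 and higher in 5 of 18 tested (median -0.17), with Tdp1 at -0.82, Apex2 at -0.81, Nthl1 at 0.43 and Neil1 at 0.81. Without p140Cap replicate 2 the lower genes of that list were 7. Nucleotide excision repair genes were lower in 9 and higher in 5 of 20 (45% and 25%), not far from the shares over all genes. Their median was -0.10, with Ercc8 at -0.98, Gtf2h1 at -0.63, Ddb2 at 0.51 and Uvssa at 0.81. Without p140Cap replicate 2 the higher genes of this list were 3.

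**Figure D4:**
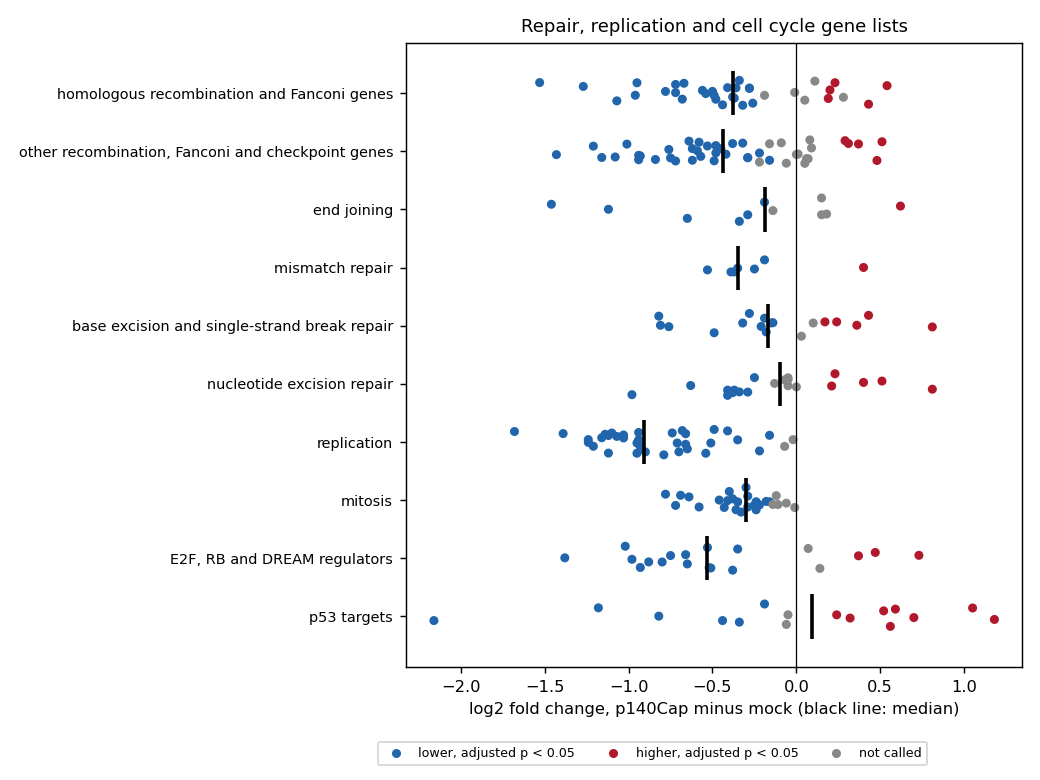
Log2 fold change, p140Cap minus mock, on the x axis, for the tested genes of each list on the y axis, with points spread vertically for visibility. Each point is a gene, colored by its call, and the black line is the median of the list. The median of the recombination and Fanconi genes (-0.38) lies between those of replication (-0.91) and of nucleotide excision repair genes (-0.10).

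Genes of DNA replication and mitosis moved with the repair genes. Of 36 replication genes 34 were lower, and all 36 had a log2 fold change below 0 (median -0.91), with the flap nuclease Fen1 at -1.68 and the origin factor Cdc6 at -1.39. Their summed level was 4662 to 4737 CPM in mock and 2658 to 2802 CPM in p140Cap libraries, while that of the 35 repair genes was 1552 to 1648 CPM and 1268 to 1303 CPM. Of 28 mitosis genes 23 were lower, and all 28 had a log2 fold change below 0 (median -0.30), with the motor protein Kif11 at -0.78 and the checkpoint protein Mad2l1 at -0.72. Among 19 E2F, RB and DREAM regulators 14 were lower and 3 higher (median -0.53). The repressor E2f7 was at -1.38 and the E2F partner Tfdp1 at -1.02, while Rbl2 and Rb1, of the retinoblastoma family, were at 0.73 and 0.47. Of 16 tested p53 targets 6 were lower and 8 higher (37.5% and 50%, beside 35.9% and 35.2% of all genes tested). Their median was 0.09, and they ran from Aen at -2.16 and Fas at -1.18 to Btg2 at 1.05 and Trp53inp1 at 1.18. The part of the cell cycle in the decrease of the repair genes was not tested.

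Exons of another gene lie on the other strand in 24 of the 35 members and on the same strand in 2 (Rad54b and Atr), by the GENCODE annotation of GRCm39. The libraries were stranded, but no source used here says if strand entered the counting, so reads of such members, Fanca, Exo1, Fancl and Fancc among them, could hold reads of the other gene.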

How the data were processed

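RNA-Seq of 3 mock and 3 p140Cap TuBo libraries was used. Poly(A) RNA was made into stranded Illumina libraries. The authors deposited counts, whole reads per gene, without normalization. The submitters' processing notes name STAR 2.5, RSEM 0.1.1 and mm10 without saying what each did, and if RSEM made the values, its estimated reads were rounded before deposit. In R 4.3.3, genes were filtered with filterByExpr and tested with edgeR 4.0.16 (TMM factors, quasi-likelihood test, condition as the only term, Benjamini-Hochberg adjustment over 11800 genes). SE is the absolute log2 fold change over the square root of F. CPM used TMM-adjusted totals, which lay between 13770385 and 75506562 reads before adjustment, and the common coefficient of biological variation was 4.57%. The fits were also run on simulated data in which few genes changed, unlike here. That check does not gauge error rates in these data. Within groups, the mean chi-square over genes of 2 libraries was 1.75 to 10.7, where sampling noise gives 1, so no library was a copy.

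Members and lists were chosen with earlier results of these data known. The rule for named genes gave values per library for the called genes with the lowest and highest log2 fold change in each role, for members not called and for Srcin1, and named up to 2 called genes at each end of every other list. Values per library for Brca1, Brca2, Fancl and Fance fall outside the rule. Alternatives were RLE factors, DESeq2 1.42.0, limma-voom (limma 3.58.1), no filter, at least 10 reads in every library, a block for the replicate number, 1 library left out at a time, and thinning to the smallest total. Promoters and positions came from RefSeq (GRCm38.p6) by symbol, and H2afx by its synonym. Exon lengths came from GENCODE M39, which held 98.6% of the deposited Ensembl identifiers.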

Additional observations from a re-analysis of the deposited data

How the results depend on the processing

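The median of the members lay between -0.42 and -0.35 under every alternative, and the lower members numbered 23 to 26. With each library left out in turn, 3 to 6 members, 1 to 2 end joining and 0 to 1 mismatch repair genes were higher, 7 to 10 base excision genes were lower and 3 to 5 nucleotide excision genes were higher. After thinning, 2 end joining genes were higher, and the log2 fold change of Xrcc3 was 0.02, while it ranged from -0.05 without mock replicate 2 to 0.05 without mock replicate 1. The cause was not tested. Same-numbered libraries did not deviate together (correlations of -0.0299, -0.106 and -0.0573). With only 3 libraries centered on each group mean, this check cannot exclude that a number marks a pair, and the labels do not say. With the replicate block 25 members were lower and 5 higher, with a median of -0.38. Every mock library was deeper than every p140Cap library, which limits the precision of genes with few reads such as Rad51b and Fancf.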
